A study of Mus musculus with 2 samples.

Results

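The genes described here are 10 genes of alternative (M2) activation and anti-inflammatory signalling, *Arg1*, *Arg2*, *Chil3*, *Retnla*, *Mrc1*, *Tgm2*, *Il4ra*, *Il10*, *Il10ra* and *Tgfb1*. They were taken from a fixed list of names, and every probe whose RefSeq accession belongs to one of them was read on both arrays, which gave 12 probes. The array named 20655 genes in all. RAW264.7, an established macrophage cell line from an Abelson virus-induced tumor of an adult male BALB/c mouse, was treated for 24 h with vehicle or with IR-61, a near-infrared cyanine dye that collects in mitochondria. Each condition had 1 culture and 1 single-colour Agilent array. The labels give no dose, and they name no IL-4, IL-13 or LPS for either culture.

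Macrophages exposed to IL-4 or IL-13 are said to be alternatively activated. These cytokines bind receptors that contain the IL-4 receptor alpha chain, and Janus kinases then phosphorylate the transcription factor STAT6. STAT6 turns on *Arg1* and the chitinase-like and resistin-like genes that mark this state in mouse cells. *Arg2*, the other arginase gene among the members, is not counted with these targets here. IL-10 and TGF-beta dampen inflammation by other routes, through STAT3 and the SMAD proteins. The arrays were made to find how IR-61 bears on macrophage activation, and for these genes the comparison asks whether markers of alternative activation differed between vehicle and IR-61 with no cytokine named.

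All 10 genes were well above background on both arrays, and 8 of them had a lower scaled signal with IR-61. *Arg2* was 2.69-fold lower and *Retnla* 2.01-fold lower, and no member was 2-fold higher. Thus 2 of 10 members were lower by 2-fold or more, where 1.39% of the 16885 genes measured on both arrays were. Higher by 2-fold or more were 0 of 10 members and 1.99% of those genes. The members were chosen with earlier results of these data known, so these shares are a description only. The median log2 difference, IR-61 minus vehicle, was −0.43 over the members and 0.10 over all measured genes. *Mrc1*, *Il4ra* and *Il10* lay within 0.1 of 0. With 1 array per condition no test between the conditions was possible and no difference between cultures can be estimated, so each value describes these 2 arrays. RNA from fewer cells of a kind and less RNA per cell cannot be told apart.

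Signals are fluorescence intensities in the scanner's arbitrary units. The IR-61 array was brighter as a whole, with a 75th percentile of 10.79 on the log2 scale against 10.30 for vehicle, and that percentile was taken off each log2 signal before the arrays were compared. A difference is therefore relative to the overall brightness, and a gene can have a higher unscaled signal and a lower scaled one. Without this scaling 4 members were lower and 6 higher with IR-61, and the median of all measured genes was 0.59. All 10 members lay below that median with or without scaling, because the scaling shifts every gene equally. The only error that can be measured comes from probes printed 10 times on each array. The SD of a difference expected from this spread between spots is given beside each value, and it covers noise within an array only.

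**Figure D1:**
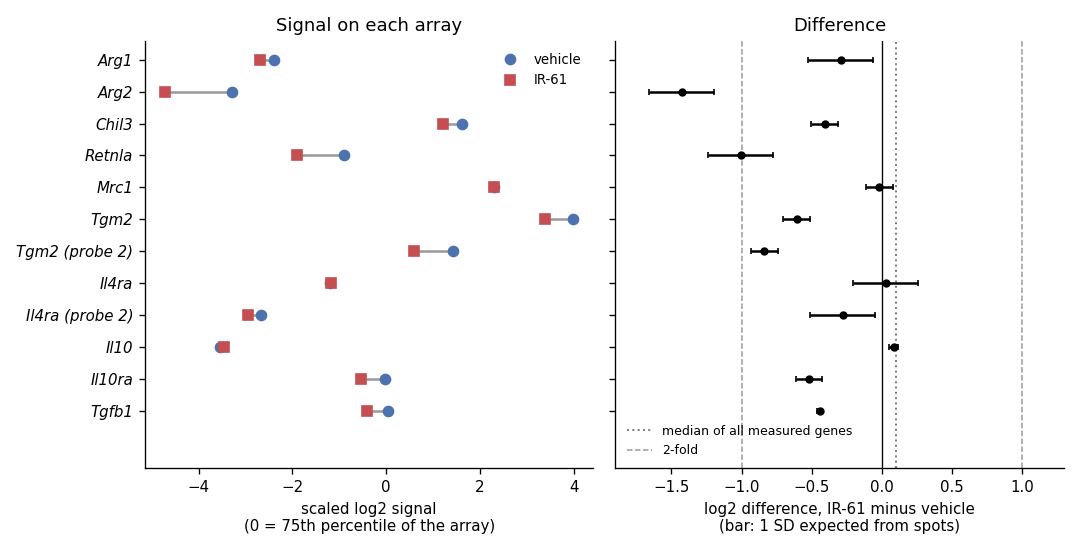
Left, scaled log2 signal of each of the 12 member probes on the vehicle array (circles) and the IR-61 array (squares), where 0 is the 75th percentile of the array; levels of different probes are not comparable. Right, the log2 difference, IR-61 minus vehicle, with 1 SD expected from the spread between spots; *Arg2* at −1.43 and *Retnla* at −1.01 lie at or beyond the 2-fold line, and the dotted line is the median of all measured genes at 0.10.

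Arginase splits arginine into ornithine and urea, and macrophages hold a cytosolic form, *Arg1*, which is a classic target of STAT6, and a mitochondrial form, *Arg2*. The signal of *Arg1* was 239.6 with vehicle and 275 with IR-61. After scaling its log2 difference was −0.29 with an expected SD of 0.231, so that it was not separated clearly from noise between spots, and without scaling it was 0.20 and thus higher. The signal of *Arg2* was 130.0 with vehicle and 67.8 with IR-61, lower on both scales. Its log2 difference was −1.43 with an expected SD of 0.231, and it took rank 83 of the 16885 genes counted from the largest fall. With IR-61 *Arg2* was still 4.51 times as bright as the dimmest probe called well above background. Its difference was −0.94 without scaling and −0.92 with normexp background correction.

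*Retnla*, which encodes the secreted resistin-like protein RELMα (Fizz1), and *Chil3*, which encodes the secreted chitinase-like protein Ym1, are the textbook output genes of STAT6 in mouse macrophages. RefSeq windows before the gene start were at hand for 5 members, *Chil3*, *Il4ra*, *Mrc1*, *Retnla* and *Tgfb1*, and these were searched for 2 palindromic motifs, each the same on both strands. The first is TTC and GAA with any 4 bases between them, the spacing that STAT6 prefers, and the second is TTC and GAA with any 3 bases between them, the spacing shared by other STAT proteins. In the 250 bases before the start, *Retnla* held 1 match to the first and *Chil3* 1 match to the second, and the other 3 members held none of either. Of all 32851 windows of this length 5.85% held the first and 7.02% the second. A match is a run of letters and was not tested as a binding site. The 2 stretches are shown because they belong to the STAT6 output genes among the members. They are printed 5′ to 3′ on the strand of the gene, with the matches in capitals, from the GRCm38.p6 assembly at chr16:48842359-48842608 on the plus strand for *Retnla* and chr3:106167565-106167814 on the minus strand for *Chil3*.
Retnla: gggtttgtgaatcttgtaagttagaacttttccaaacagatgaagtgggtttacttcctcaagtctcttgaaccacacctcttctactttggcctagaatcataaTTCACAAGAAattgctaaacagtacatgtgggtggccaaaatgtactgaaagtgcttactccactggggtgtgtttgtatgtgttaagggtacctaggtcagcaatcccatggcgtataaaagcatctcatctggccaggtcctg
Chil3: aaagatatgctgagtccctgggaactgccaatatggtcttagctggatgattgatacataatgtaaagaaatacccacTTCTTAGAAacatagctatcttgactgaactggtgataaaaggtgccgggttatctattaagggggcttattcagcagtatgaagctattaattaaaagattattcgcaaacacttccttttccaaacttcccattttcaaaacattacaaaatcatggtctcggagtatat

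The match began 145 bases before the start in *Retnla* and 172 bases before it in *Chil3*. The signal of *Retnla* was 679 with vehicle and 474 with IR-61, lower on both scales. Its log2 difference was −1.01 with an expected SD of 0.231, so it stood on the 2-fold line, at rank 234 of all measured genes. It was −0.99 with quantile normalization and with the deposited log2 values, −0.91 with normexp and −0.52 without scaling. The signal of *Chil3* was 3869 with vehicle and 4091 with IR-61. The scaled signal was 1.33-fold lower with IR-61 (log2 difference −0.41, expected SD 0.095), and 10.7% of all measured genes had a difference as low or lower. Without scaling *Chil3* was higher by 0.081 on the log2 scale. The differences of *Retnla* and *Chil3* were 4.35 and 4.31 times their expected SDs, which hold no variation between arrays or cultures. Whether the STAT-type matches bear on these differences was not tested.

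*Mrc1* encodes the mannose receptor CD206, an endocytic surface lectin, and is used with *Arg1*, *Retnla* and *Chil3* to mark alternative activation. Its signal was 6247 with vehicle and 8665 with IR-61, and after scaling its log2 difference was −0.02 with an expected SD of 0.095, that is within the noise between spots. Without scaling it was 0.47. *Tgm2* encodes transglutaminase 2, which cross-links proteins and is a marker of alternative activation shared by mouse and human macrophages. The brighter of its 2 probes had a signal of 19994 with vehicle and 18418 with IR-61, and the second 3395 and 2665, lower on both scales. Their log2 differences were −0.61 and −0.84, each with an expected SD of 0.095, so both probes pointed the same way and neither reached 2-fold. Of the members, *Tgm2* and *Il4ra* were the ones read by 2 probes.

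*Il4ra* encodes the receptor chain that IL-4 and IL-13 share. Its brighter probe had a signal of 546 with vehicle and 782 with IR-61, and the second 198 and 229.7. After scaling the log2 differences were 0.03 and −0.28, each with an expected SD of 0.231, and the probes differed in sign. Both were higher without scaling, by 0.52 and 0.21. Neither probe was clearly separated from noise between spots.

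The remaining members are *Il10*, *Il10ra* and *Tgfb1*. *Il10* encodes the cytokine that restrains macrophage activation, and *Il10ra* the ligand-binding chain of its receptor. *Il10* and *Tgfb1* were printed 10 times on each array, which makes them the best measured members. The 10 vehicle spots of *Il10* ran from 92.6 to 118, with a median of 109.9, and the 9 IR-61 spots used ran from 155 to 167, with a median of 162. All IR-61 spots were brighter than all vehicle spots before scaling. The scaled log2 signal was −3.54 ± 0.10 with vehicle (SD between 10 spots) and −3.46 ± 0.04 with IR-61 (SD between 9 spots), and after scaling the spots of the arrays overlapped. The log2 difference was 0.08 with an expected SD of 0.035, which is 0.015 below the median of all measured genes, and with normexp it was −0.08. *Il10* was thus close to the overall level of change on these arrays.

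The 10 vehicle spots of *Tgfb1*, which encodes the latent cytokine TGF-beta 1, ran from 1228 to 1394 with a median of 1292, and the 10 IR-61 spots from 1274 to 1425 with a median of 1343. These unscaled ranges overlapped. The scaled log2 signal was 0.04 ± 0.05 with vehicle and −0.40 ± 0.04 with IR-61 (SD between 10 spots each), and after scaling every IR-61 spot lay below every vehicle spot. The log2 difference was −0.44 with an expected SD of 0.021, equal to a 1.36-fold lower signal, and without scaling it was 0.05. The difference between these readings is the difference in overall brightness. *Il10ra* had a signal of 1241 with vehicle and 1217 with IR-61. Its log2 difference was −0.52 after scaling, with an expected SD of 0.095, and −0.03 without scaling.

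**Figure D2:**
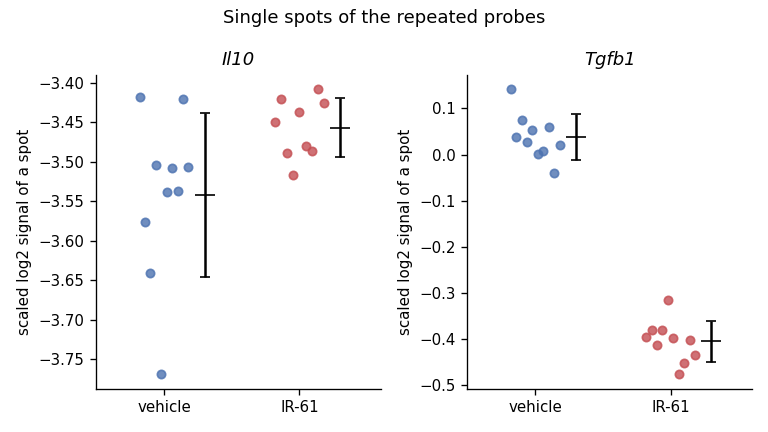
Scaled log2 signal of every spot used for *Il10* (10 vehicle and 9 IR-61 spots) and *Tgfb1* (10 spots on each array), with the mean and SD between spots beside them; spots are repeats on 1 array, not replicate cultures. The spots of *Il10* overlap between the arrays, while all IR-61 spots of *Tgfb1* lie below all vehicle spots.

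Among all measured genes, the log2 differences had an SD of 0.44, and 38.8% were below 0. All 10 members lay below their median, *Il10* by 0.015, *Il4ra* by 0.07 and *Mrc1* by 0.12, and the remaining 7 by 0.39 or more. Measured in this way, from the median of all genes, 7 members lay below that median under each of 11 other settings, *Arg2* by 0.89 to 1.58, *Retnla* by 0.88 to 1.11, *Tgm2* by 0.63 to 0.80 and *Il10ra* by 0.54 to 0.62. *Mrc1* also lay below it under each of these settings, by 0.04 to 0.14. *Il4ra* did so under 8 and *Il10* under 9 of the 11. Median scaling, percentile scaling over detected probes and no scaling shift every gene equally and cannot change these distances. Keeping outlier spots or changing the filter on dim probes left the members' values unchanged, apart from *Il10*. The mean over probes could change only *Tgm2* and *Il4ra* among the members. The members' median minus that of all genes was −0.49 with quantile normalization, loess and the deposited log2 values, and −0.38 with normexp.

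**Figure D3:**
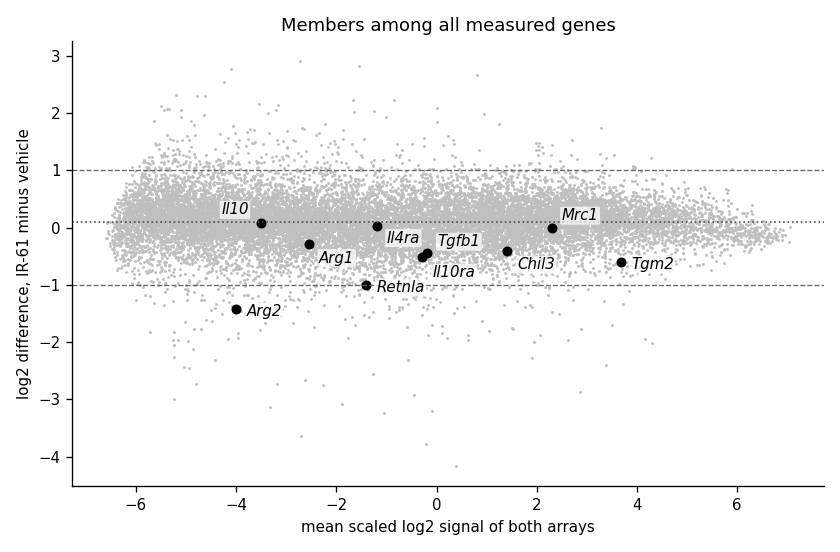
Log2 difference, IR-61 minus vehicle, against the mean scaled log2 signal of both arrays for the 16885 genes measured well above background on both (grey), with the 10 members in black. The dashed lines mark 2-fold and the dotted line the median of all genes at 0.10; *Arg2* lies below the lower dashed line, *Retnla* on it and no member above the dotted line.

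**Figure D4:**
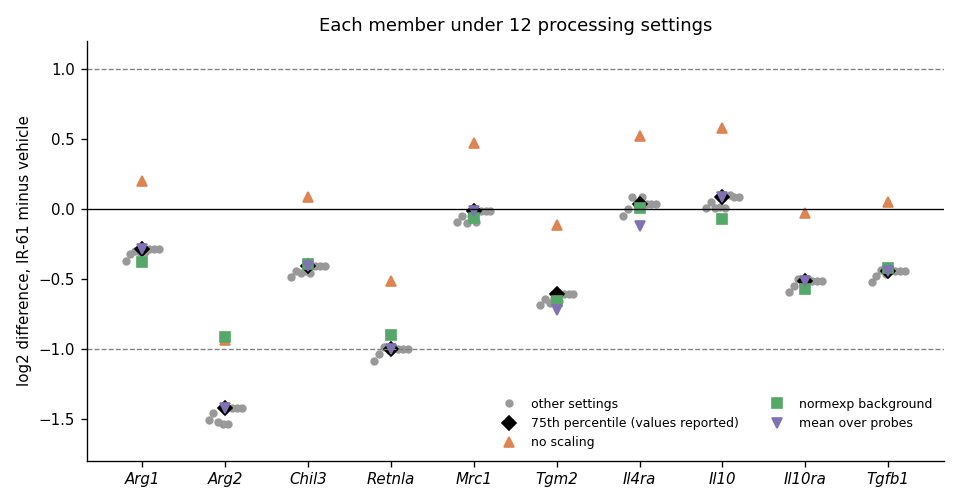
Log2 difference of each member under 12 processing settings, with the values reported as diamonds, values without scaling as triangles pointing up, with normexp as squares, with the mean over probes as triangles pointing down and the remaining settings as grey circles. Leaving out the scaling moves every member up by 0.49, and *Arg1*, *Chil3*, *Mrc1* and *Tgfb1* then lie above 0.

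The other genes of these pathways were read from lists of names. For comparison, 1.39% of all measured genes were lower and 1.99% higher by 2-fold or more. Their median was 0.10. Of 9 genes of IL-4 and STAT6 signalling, all measured on both arrays, 1 was lower by 2-fold or more and none higher, with a median log2 difference of −0.23. The one was *Il2rg*, the common gamma chain that pairs with IL-4 receptor alpha, with signals of 1052 and 572 for vehicle and IR-61 and a log2 difference of −1.37. *Il13ra1*, the partner chain for IL-13, was at −0.50 and *Jak1* at −0.06. Of the 9 genes 7 were below 0, while *Socs1* at 0.49 and *Irs2* at 0.09 were above it. *Stat6* itself was at −0.23 on its brightest probe, and its other probes were at 0.15 and −0.53. Without scaling the median of this list was 0.26 and *Il2rg* was at −0.88.

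Of 26 measured genes among 29 others used as markers or regulators of alternative activation, 1 was lower by 2-fold or more and none higher, and the median was 0.01. The one was *Il1rn*, the IL-1 receptor antagonist, with signals of 426 and 179 and a log2 difference of −1.74, and it was past 2-fold under all 11 other settings. The lectin genes *Mgl2* and *Clec10a*, which belong with *Mrc1* among surface markers, were at 0.08 and 0.51, and the nuclear receptor gene *Pparg* was at 0.67. Of the 26 genes 12 were below 0. Among them were *Myc* at −0.88, *Ccl24* at −0.66 with an expected SD of 0.463, *Kdm6b* at −0.42 and *Klf4* at −0.37. *Ccl17* and *Ear2* were just under the 2-fold line, at 0.98 and 0.94, but the vehicle signal of *Ccl17* was 13.9, near the lowest signal of 12.8 well above background, and with normexp *Ccl17* was at 0.01 and *Ear2* at 0.70. *Ccl22* and *Alox15* did not rise clearly above background on the vehicle or the IR-61 array, and *Clec7a* was without a named probe. The median of this list was within 0.1 of 0 under every scaling apart from none, where it was 0.50.

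Around the arginases, 18 of 20 genes of arginine and polyamine metabolism were measured, with a median of −0.01. Of these, 2 were lower by 2-fold or more and none higher. They were *Slc7a1*, a transporter that brings arginine into the cell, with signals of 5104 and 2801 and a log2 difference of −1.35, and *Aldh18a1*, an enzyme of proline and ornithine synthesis, with signals of 167 and 83.4 and a difference of −1.49. Ornithine decarboxylase, *Odc1*, which uses the ornithine that arginase makes, was at −0.85 on its brightest probe and at −0.71 and −1.88 on its other probes, and with the mean over probes 3 genes of the list were lower by 2-fold or more. *Nos2*, which competes with arginase for arginine, was at 0.22 with an expected SD of 0.231. Without scaling the list had a median of 0.48, and *Slc7a1* and *Aldh18a1* were at −0.87 and −0.999.

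All 13 genes of the IL-10 signalling list were measured and all 13 were below 0, with a median of −0.49, where 38.8% of all measured genes were below 0. Whether signalling by IL-10 itself differed was not tested. Of these, 2 were lower by 2-fold or more and none higher, *Il1rn* again and *Bcl3*, an atypical IκB protein induced by IL-10, with signals of 25983 and 11204 and a difference of −1.70. *Socs3*, the feedback inhibitor that STAT3 induces, was at −0.80, and the mRNA-destabilizing factor *Zfp36* at −0.75. *Il10rb*, the second chain of the receptor, was at −0.23 and *Stat3* at −0.19. Without scaling 7 of the 13 were below 0 and the median was −0.0001.

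Of 30 genes of TGF-beta activation and signalling 28 were measured, none past 2-fold in either direction on its brightest probe, with a median of −0.17. *Tgfb2* and *Tgfb3*, the other TGF-beta ligands, were at −0.34 and 0.05. The receptors *Tgfbr1* and *Tgfbr2* were at −0.39 and 0.07, and the range of the list was from −0.81 for *Skil* to 0.66 for *Smad2*. A second, dimmer probe of *Skil*, which encodes a repressor of SMAD proteins, had signals of 402 and 182 and a difference of −1.63, and with the mean over probes *Skil* was at −1.22 and past 2-fold. Without scaling the median was 0.32 and 3 of the 28 genes were higher by 2-fold or more, where 12.8% of all measured genes were.

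Close relatives of the members were mostly dim. Of 24 with a named probe 17 were measured on both arrays, with a median of −0.01. *Mrc2* and *Ly75*, lectins of the mannose receptor family, were lower by 2-fold or more, at −1.08 and −1.03, with vehicle signals of 43.9 and 90.5, and a second probe of *Mrc2* was at 0.40. With normexp they were at −0.60 and −0.70. *Chil4*, the closest relative of *Chil3*, had signals of 43.3 and 46.5 and a difference of −0.38 with an expected SD of 0.463. The probes of *Chil3* and *Chil4* may bind either transcript, which was not tested. *Retn* was at −0.33, also with an expected SD of 0.463, and *Retnlb* and *Retnlg*, relatives of *Retnla*, were too dim on both arrays to give a difference.

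**Figure D5:**
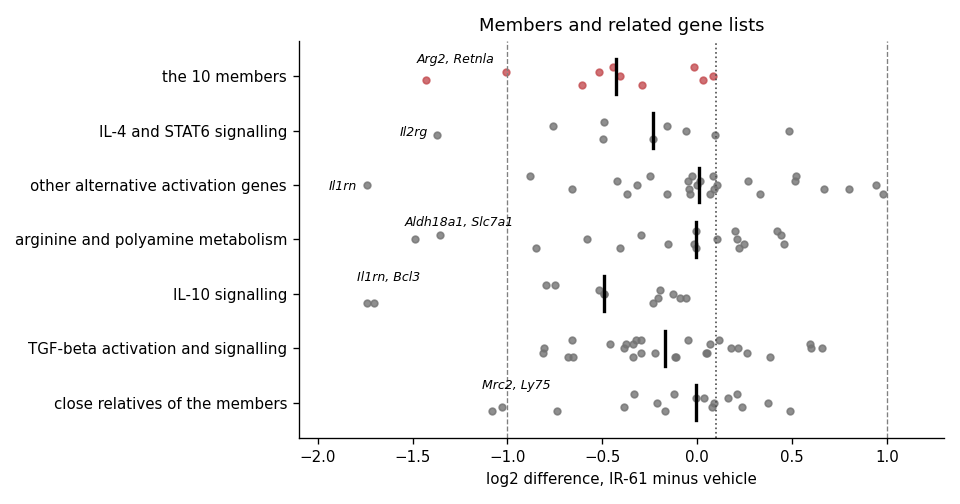
Log2 difference, IR-61 minus vehicle, of the 10 members (red) and of the genes of 6 related lists measured on both arrays (grey), with the median of each as a bar and the genes past 2-fold named. The dotted line is the median of all measured genes at 0.10 and the dashed lines mark 2-fold; the bars of the members and of the IL-10 list lie furthest below the dotted line, at −0.43 and −0.49.

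The identity of the cells was checked with marker genes. Of 12 macrophage markers, all 11 with a named probe were well above background on both arrays. Their log2 differences ran from −0.98 to 1.08 with a median of −0.04, and 6 of the 11 were below 0. *Adgre1* and *Aif1* were higher by 2-fold or more, at 1.03 and 1.08. They stayed past 2-fold under 8 and 11 of 11 other settings. *Cd14* was at −0.98, *Spi1* at −0.83 and *Fcgr3* at −0.61. The summed unscaled signal of the macrophage list was 216217 with vehicle and 395249 with IR-61, on arrays that differed in overall brightness. Markers of other cells were also read above background. On both arrays these were 5 of 6 T cell genes, 6 of 6 B cell genes, 5 of 5 neutrophil genes, 6 of 6 fibroblast genes and 4 of 6 adipocyte genes, while *Cd3g*, *Adipoq* and *Lep* were not. The fibroblast list had a summed unscaled signal of 64869 with vehicle and 110414 with IR-61. *Col1a1* had unscaled signals of 27148 and 58670, and *Col1a2* of 15029 and 22576. After scaling *Col1a1* was at 0.62 and *Col1a2* at 0.10, and 2 of the 6 genes were below 0, *Col3a1* at −0.34 and *Dcn* at −0.09. The median log2 difference of the fibroblast list was 0.14. It was 0.40 for the neutrophil list, where all 5 genes were above 0. For the adipocyte, T cell and B cell lists it was 0.23, 0.08 and 0.02. Some of these genes, such as *Csf3r* and *Fabp4*, are also expressed by macrophages. In the B cell list *Ms4a1* and *Cd79b* were lower by 2-fold or more, at −1.46 and −1.09, and with normexp at −1.07 and −0.89. In the adipocyte list *Plin1* was at 1.13 from a vehicle signal of 16.9, but at 0.20 with normexp, and it was past 2-fold under 6 of 11 other settings. *Cidec* and *Retn* of that list were at 0.06 and −0.33. The part of these genes in the members' values was not tested.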

How the data were processed

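The authors scanned 1 array per condition and deposited, per the file headers, the intensity of each spot from Agilent Feature Extraction 11.0.1.1, background-subtracted and detrended but not scaled between arrays, with 0/1 flags as another kind of value. The processing notes give version 11.0.0.1. A second table, of log2 values per probe, was deposited too, and how it was scaled is not given in the sources used here. Its columns share a median of 7.15 and follow the log2 intensities with r of 0.9995 for vehicle and 0.9988 for IR-61 across probes.

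Spots flagged as outliers (124 for vehicle, 139 for IR-61) were dropped together with control spots. Log2 intensities were averaged per probe and scaled by subtraction of their 75th percentile on the array. No spot was saturated. Of the probes, 77.6% for vehicle and 81.2% for IR-61 were well above background, which was taken as flagged in over 50% of the spots. Of 39419 probes 27224 were named by RefSeq accession, without version, from a GRCm38.p6 table, from which no gene coordinates were taken, since the array was designed on mm9. Promoter windows came from RefSeq on GRCm38.p6 as well. Where a gene has several probes, the brightest stands for it. The spread between spots comes from the 399 probes printed 10 times, pooled under 6, from 6 to 10 and above 10 on the log2 scale, or from the probe itself where it was repeated. No test was run. Steps were tested on simulated data.

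The members and gene lists were chosen with earlier results of these data known. Members were removed from the lists. Named in each list were genes past 2-fold, at most 4 per direction, bounds of 2-fold or more, or else its first 2 genes. All others were named after their values were seen, for their role or their value. Alternatives were other scalings, the deposited log2 values, normexp with an offset of 50 (4 spots whose background exceeded their signal took the array's median background), the mean over probes, outlier spots kept, other filters on dim probes and other fold limits. Python 3.11.15, numpy 2.4.6, pandas 2.3.3, matplotlib 3.10.9, R 4.3.3 and limma 3.58.1 were used.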

Additional observations from a re-analysis of the deposited data

How the results depend on the processing

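No paired analysis was possible because vehicle and IR-61 have a single array each and no pairs. The median log2 difference of the members was between −0.51 and −0.41 under the alternatives with scaling and was 0.063 without scaling. The number of members lower by 2-fold or more was 2, and it was 1 with quantile normalization or the deposited log2 values, where *Retnla* was short of the limit, and 0 without scaling, with normexp or with a 3-fold limit. Without scaling *Arg1* was at 0.20, *Chil3* at 0.081 and *Tgfb1* at 0.045, and with normexp *Il10* was at −0.077. These are the members whose sign turned from a value beyond the spread between spots. The shift of all genes under no scaling follows from the brighter IR-61 array, and the cause of the shifts with normexp was not tested.

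Over all measured genes, 235 were lower and 336 higher by 2-fold or more. These counts were 960 and 1653 with a 1.5-fold limit, 64 and 50 with a 3-fold limit, 72 and 2156 without scaling, 149 and 124 with normexp, and 440 and 921 with no filter on dim probes. With a signal of 50 or more on both arrays 201 were higher. The lower genes were 41.2% of those past 2-fold, 54.2% with scaling by the median, 52.1% with quantile normalization, 53.6% with loess and 51.4% with the deposited log2 values. With 1 array per condition the spread between cultures is unknown, and this limits all of these values.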
